A study of Mus musculus with 10 samples.

Results

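Interferon response genes are transcripts that cells make more of when interferon binds its receptors. A list of 43 such genes was followed here across 10 arrays of mouse bone marrow neutrophils, with 38 of the 43 measured among the 19938 genes that had a probe set of their own. The members were chosen by name as interferon-stimulated genes, with earlier results of these data known. Each was read from the probe set that names only that gene and had the highest mean over the 10 arrays. Isg15, a ubiquitin-like protein, and the GTPases Gbp2, Igtp and Ifi47 had only probe sets that name several genes, and Ifi44 had no named probe set, so these 5 have no values. The antiviral GTPases Mx1 and Mx2 and the RNA-binding protein gene Ifit2 were measured but stayed too low for testing. The other 35 were tested among 14070 genes for which at least 2 arrays exceeded 8.18 (log2), the middle of the whole table.

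All mice were of strain C57bl/6, labelled as female and 10 weeks old, and neutrophils were enriched from the marrow of tibia and femur on a Percoll density gradient after lysis of red cells. Unstimulated cells gave 3 wild type arrays and 3 arrays of Lcn2 knockout cells, which lack lipocalin 2, a granule protein that binds iron carriers. Cells kept with 10 µM fMLP, a formylated peptide of the bacterial type that attracts neutrophils, for 20 min at 37 degrees gave 2 wild type and 2 knockout arrays. The labels do not give the knockout allele, do not say that replicates were separate mice and do not say whether unstimulated cells were kept at 37 degrees. The p-values therefore measure only the spread between these samples, which may be technical.

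Type I interferons act through the receptor Ifnar1 and Ifnar2 and the kinases Jak1 and Tyk2. These activate transcription factors, among them Stat2, which joins Irf9 and acts at a DNA element with repeated GAAA letters, the interferon-stimulated response element. Resting neutrophils hold many of the induced transcripts at a basal level, and the proteins sense viral RNA, degrade or trap it, process antigen or pass the signal on.

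The arrays fell into 2 sets. Unstimulated replicates 1 and 2 of both genotypes form set 1, with interquartile ranges of 1.64 to 1.68 on the log2 scale. Unstimulated replicate 3 of both genotypes and the 4 fMLP arrays form set 2, with 2.47 to 2.59. The labels name no batch. The set enters each fit as a term, and fMLP can be compared with unstimulated cells only within set 2. The array of fMLP knockout replicate 2 stood apart: 13 measured neuron markers summed to 14.997 there (log2 of the summed signals) against 11.4 to 12.0 on the other 9 arrays. Fits are therefore given with and without it. Neutrophil markers were high throughout, the 14 summing to 16.3 to 17.4, with S100a8 between 13.30 and 13.83. Others moved more, such as Itgam from 10.69 to 12.85 and Ly6g from 11.89 to 13.89. Against wild type, 12 of 14 were lower on unstimulated knockout replicate 2 (median -0.39) and 14 on fMLP knockout replicate 2 (median -0.59). Sex-linked genes differed between arrays that are all labelled as female. Y-linked Eif2s3y read 9.83 and 9.59 on the unstimulated wild type and knockout arrays of set 2 but 5.36 to 6.48 on the fMLP arrays, and Xist, the RNA of X inactivation, read 6.88 and 6.94 against 9.83 to 11.12. On the 4 arrays of set 1 both lay between these, Eif2s3y at 6.77 to 7.22 and Xist at 7.73 to 7.82. Lcn2 itself matched its labels, with 13.88, 13.93 and 14.02 in unstimulated wild type, 9.20, 8.36 and 8.09 in unstimulated knockout, 14.13 and 14.16 in fMLP wild type and 8.42 and 9.60 in fMLP knockout cells. It was lower by 5.39 in unstimulated knockout cells (log2 difference -5.39, SE 0.33, limma adjusted p = 0.00266).

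The members share promoter letters that the choice of genes did not use. RefSeq windows from 250 bases before to 50 after the start (build GRCm38.p6) were matched for 34 of the 43 genes. The letters GAAANNGAAA, on either strand and with overlaps counted, were in 17 of the members' 41 windows (41.5%) against 3.44% of 32851 windows of all genes. The promoters of 5 genes named in the results below are shown as examples: Ifit3, Rsad2 and Oas3 for the knockout differences, Irgm1 and Irf7 for fMLP. They do not stand for the members, of which 16 of the 34 genes with a window held a match. Oasl1, Irf9, Dtx3l, Oasl2, Xaf1 and Cmpk2, also named below, held none in their windows. Each sequence is the 250 bases before the start, read 5′ to 3′ on the gene's strand, with capitals marking GAAANNGAAA or its reverse complement.
Ifit3: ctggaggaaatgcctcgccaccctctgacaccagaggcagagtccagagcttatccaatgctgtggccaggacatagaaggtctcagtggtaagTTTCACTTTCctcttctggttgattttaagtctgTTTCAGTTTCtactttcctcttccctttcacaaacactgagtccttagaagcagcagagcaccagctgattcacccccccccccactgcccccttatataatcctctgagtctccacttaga
Rsad2: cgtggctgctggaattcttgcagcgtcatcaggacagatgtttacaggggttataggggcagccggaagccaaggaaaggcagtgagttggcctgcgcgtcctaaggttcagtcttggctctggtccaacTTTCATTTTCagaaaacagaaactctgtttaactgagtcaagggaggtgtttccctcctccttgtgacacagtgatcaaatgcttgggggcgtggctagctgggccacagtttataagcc
Oas3: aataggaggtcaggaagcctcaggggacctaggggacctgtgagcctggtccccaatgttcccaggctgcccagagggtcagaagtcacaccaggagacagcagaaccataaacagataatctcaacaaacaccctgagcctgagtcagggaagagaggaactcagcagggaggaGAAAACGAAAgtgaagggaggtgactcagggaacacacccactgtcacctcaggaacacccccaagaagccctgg
Irgm1: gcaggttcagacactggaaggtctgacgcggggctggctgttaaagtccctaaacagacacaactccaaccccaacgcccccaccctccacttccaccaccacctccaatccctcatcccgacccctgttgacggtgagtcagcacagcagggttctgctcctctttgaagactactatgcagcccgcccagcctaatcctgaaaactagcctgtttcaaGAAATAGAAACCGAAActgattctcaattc
Irf7: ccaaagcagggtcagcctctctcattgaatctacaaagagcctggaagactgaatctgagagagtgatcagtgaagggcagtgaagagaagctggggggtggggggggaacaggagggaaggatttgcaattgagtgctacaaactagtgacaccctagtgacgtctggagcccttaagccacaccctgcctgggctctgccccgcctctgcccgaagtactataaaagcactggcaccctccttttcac
These lie at chr19:34583279-34583528 (+) for Ifit3, chr12:26456453-26456702 (-) for Rsad2, chr5:120777660-120777909 (-) for Oas3, chr11:48871421-48871670 (-) for Irgm1 and chr7:141266425-141266674 (-) for Irf7. Ifit3 held matches at 156 to 147 and 122 to 113 bases before its start. Rsad2 held a match at 120 to 111, Oas3 at 75 to 66, and Irgm1 held overlapping ones at 30 to 21 and 24 to 15. Irf7 held none, which says only that these letters are not in this window. A match is a description of the letters and not of binding.

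In unstimulated cells most interferon response genes read lower on knockout arrays, and no member passed the test. Of the 35 tested members, 29 had a log2 difference below 0, and their median was -0.10, against 45.4% of all genes lower and a median of 0.01. With limma and all 10 arrays, 0 of 35 members were called at an adjusted p below 0.05 (0.00711% of all tested genes, Lcn2 alone), and 0 had an unadjusted p below 0.05. Without fMLP knockout replicate 2 the differences were the same, the pooled spread was smaller and 0 members were again called. Of the members, 9 then had an unadjusted p below 0.05, against 3.48% of all genes: Oas2, Oas3, Oasl2, Eif2ak2, Ifit3, Rsad2, Dtx3l, Rtp4 and Xaf1, all lower in the knockout.

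The size of the difference depended on the pair of arrays. Knockout minus wild type had a median over the members of -0.04 in replicate pair 1, -0.07 in pair 2 and -0.26 in pair 3, the pair of array set 2. Members lower in the knockout numbered 20, 21 and 34 of 35, against 47.0%, 50.0% and 43.8% of all tested genes. In pair 3, 16 members were lower by more than 0.3, which only 1.17% of all genes were. In pairs 1 and 2 the counts were 6 (6.15% of all genes) and 5 (7.05%). Of the members, 14 were lower in all 3 pairs (12.1% of all genes) and 0 were higher in all 3 (16.7%). With 34 of 35 lower in pair 3, only 1 member could have been higher in all 3. These 2 counts therefore add little to the counts of the single pairs. Replicates of a genotype differed as well: replicate 2 minus 1 ran from -0.45 to 0.75 over the members in wild type cells (median 0.09) and from -0.31 to 0.79 in knockout cells (median 0.01). The pair 3 difference has no replicate within its set. In bulk samples, fewer cells of a type and less RNA per cell cannot be told apart.

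**Figure D1:**
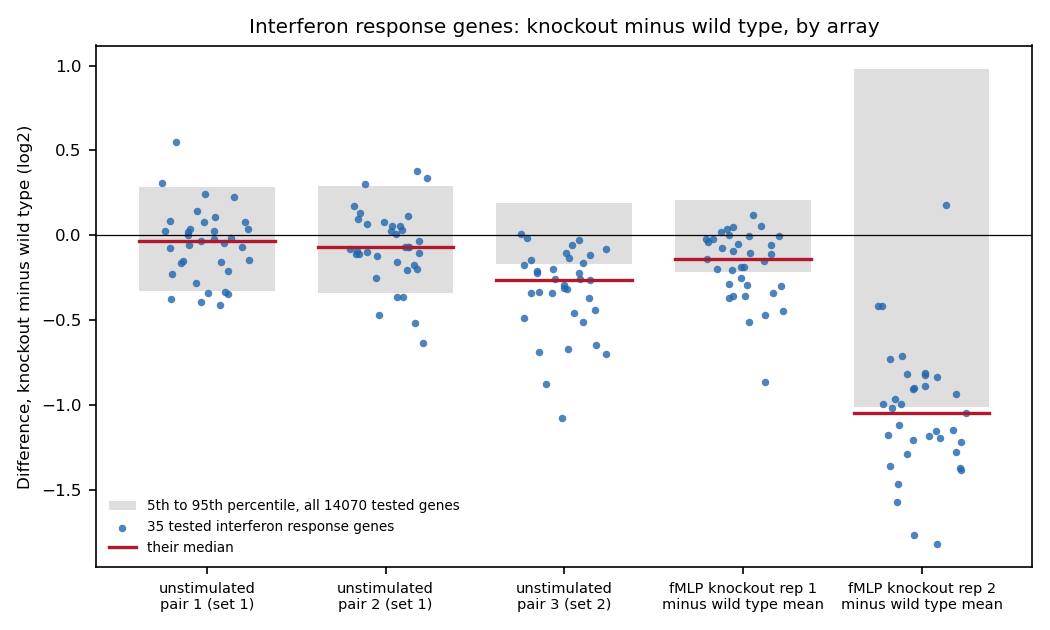
Difference between knockout and wild type (log2, y axis) for the 35 tested members (blue points) in the 3 unstimulated replicate pairs and for each fMLP knockout array against the mean of the 2 fMLP wild type arrays. Red lines are the members' medians (-0.04, -0.07, -0.26, -0.14 and -1.05 from left to right) and grey bars span the 5th to 95th percentile of the 14070 tested genes. The horizontal spread of points has no meaning.

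Rsad2, which makes the antiviral nucleotide ddhCTP, read 8.39, 9.14 and 10.30 in wild type replicates 1, 2 and 3 and 7.98, 8.77 and 9.63 in the knockout ones. Each knockout array was lower than its pair, but the groups overlapped, as replicates 1 and 2 also differed by 0.75 within wild type (log2 difference -0.48, SE 0.30, limma adjusted p = 1.0). Cmpk2, a mitochondrial nucleotide kinase whose start neighbours that of Rsad2 on chromosome 12, was lower by less in all 3 pairs, at -0.05, -0.10 and -0.16. Oas3, a synthase of the oligoadenylates that activate the RNA-cutting enzyme RNase L, read 9.03, 9.20 and 10.64 in wild type cells and 8.80, 8.72 and 10.00 in knockout cells. The difference was of one direction in every pair, at -0.23, -0.47 and -0.65 (fitted log2 difference -0.45, SE 0.29, limma adjusted p = 1.0).

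Other members of the OAS family went the same way in pair 3. Oas2 was lower by 0.21, 0.18 and 0.69 in the 3 pairs and Oasl2, an OAS-like protein, by 0.34, 0.11 and 0.87. Oas1a differed between pairs, at 0.55, 0.03 and -0.22, and Oasl1, which blocks translation of Irf7 RNA, at 0.14, -0.07 and -0.14. Eif2ak2, the kinase PKR that halts translation when it binds double-stranded RNA, was lower in each pair, at -0.40, -0.08 and -0.29. The exonuclease gene Isg20 stayed near 0 in pairs 1 and 2 (0.02 and -0.03) and read -0.17 in pair 3.

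Ifit3, an RNA-binding antiviral protein, read 9.02, 9.25 and 9.92 in wild type cells and 8.67, 8.99 and 9.22 in knockout cells. The 2 sets of values overlap across array sets but not within set 1 or set 2 (log2 difference -0.43, SE 0.28, limma adjusted p = 1.0). Ifit1, which binds viral RNA lacking the cap methylation of the host, gave 0.11, -0.20 and -0.44. Ifit2, below the signal needed for testing, read 6.77 to 7.78 on the 6 unstimulated arrays and was lower in each pair by 0.12 to 0.20. Mx1 and Mx2, also untested, read 6.25 to 7.36 on those arrays.

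Rtp4, a chaperone of receptors that also binds RNA, had the largest pair 3 difference of all members. It read 8.28, 8.60 and 10.27 in wild type cells and 8.0004, 8.49 and 9.20 in knockout cells, differences of -0.28, -0.11 and -1.08 (fitted -0.49, SE 0.31, limma adjusted p = 1.0). Dtx3l, a ubiquitin ligase that pairs with Parp9, read 8.72, 8.82 and 10.61 in wild type cells and 8.38, 8.18 and 10.27 in knockout cells. Its differences of -0.34, -0.63 and -0.34 were the members' only ones past 0.3 in all 3 pairs besides those of Rsad2 (fitted -0.44, SE 0.24, limma adjusted p = 1.0). Parp9 itself was lower by 0.02, 0.07 and 0.21, and Parp14, of the same ADP-ribosyl transferase family, gave 0.03, 0.05 and -0.31. Xaf1, a pro-apoptotic protein, was the only member with all 3 knockout arrays (8.40 to 8.67) below all 3 wild type arrays (8.72 to 8.83), which 0.149% of all genes also were.

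The sensors and transcription factors were less uniform. Ifih1, the sensor MDA5 of long double-stranded RNA, gave 0.08, -0.16 and -0.46, Dhx58, its regulator LGP2, -0.15, 0.07 and -0.08, and Zbp1, a sensor of left-handed nucleic acid, 0.22, -0.21 and -0.26. Irf7, the factor that drives interferon alpha genes, gave -0.37, 0.13 and -0.49. Irf9 was lower in each pair, at -0.04, -0.52 and -0.20, while Stat2 stayed between 0.24 and -0.02. Irf1, a factor induced mainly by interferon gamma, was lower by 0.02 to 0.12. Its second single-gene probe set gave the other sign in pairs 1 and 3, 8.93, 9.06 and 8.06 in wild type against 9.05, 9.02 and 8.20 in knockout cells.

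Members of the remaining roles read as follows. Usp18, the protease that removes Isg15 from proteins, and Herc6, the ligase that attaches it, stayed at 0.00 to 0.17 in pairs 1 and 2 and read -0.51 and -0.33 in pair 3. Among the GTPases that act on the compartments of microbes, Gbp3 gave 0.31, 0.30 and -0.26 and Irgm1 -0.15, 0.03 and -0.34. Ifitm3, which blocks virus fusion, was lower by 0.06, 0.12 and 0.06, and Bst2 (tetherin) lay within 0.04 of 0. Tap1, the peptide transporter, and the immunoproteasome subunits Psmb8 and Psmb9 read -0.22, -0.11 and -0.13 in pair 3. Ifi35, a partner of Nmi, gave -0.08, 0.38 and -0.32, Trim30a 0.08, 0.34 and -0.26, and Samd9l, the member least different in pair 3, -0.17, -0.37 and 0.01.

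Other transcripts moved in pair 3 as well. The 9 measured monocyte and macrophage markers were all lower in the pair 3 knockout array, with a median of -0.33, led by Ccr2 at -1.06. In pairs 1 and 2, 7 of 9 were lower, with medians of -0.21 and -0.13. Their summed level was 14.1 on wild type array 3 and 13.7 on knockout array 3, against 11.9 to 12.1 on the set 1 arrays. Levels in the 2 sets are not directly comparable, as their value distributions differ. The neutrophil markers also summed higher on both arrays 3 (17.4) than on the set 1 arrays (16.3 to 16.6). The 7 measured B cell markers were higher in the pair 3 knockout array, 0 of 7 being lower, with a median of 0.42, and 8 of 14 neutrophil markers were lower with a median of -0.02. Their part in the members' difference was not tested.

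The interferon pathway genes upstream of the members had no calls and leaned lower in pair 3. Of 37 tested signalling genes (ligands, receptors, kinases, inhibitors and sensors), 0 were called in unstimulated cells (0.00711% of all genes), 16 were lower (45.4% of all genes) and the median was 0.01, as over all genes. The smallest p-values belonged to Pias1, a SUMO ligase (log2 difference -0.35, SE 0.20), Ifna9 (0.22, SE 0.13), Jak1 (-0.26, SE 0.17) and Ifne (0.14, SE 0.10). On the arrays of set 2 Ifna9 (7.74 to 8.13) and Ifne (7.48 to 7.59) read below the 8.18 needed for testing. So did Ifna2 (7.73 to 8.05) and Ifnab (7.80 to 7.96), so the counts over the 37 genes include ligands of low signal in that set. In pairs 1, 2 and 3, 22, 15 and 26 of 37 were lower (47.0%, 50.0% and 43.8% of all genes). Lower in all 3 pairs were 8 (12.1% of all genes), and 1 was higher in all 3 (16.7%). In pair 3, 1 of 37 was lower by more than 0.3 (1.17% of all genes), Trim25, which ubiquitinates the RNA sensor RIG-I. Of 46 tested further interferon-induced genes that are not members, 0 were called (0.00711% of all genes). In the fit 33 were lower with a median of -0.05, against 45.4% of all genes and a median of 0.01. In pair 3, 8 of 46 were lower by more than 0.3 (1.17% of all genes). Nmi (-0.39, SE 0.19), the schlafens Slfn8 (-0.41, SE 0.26) and Slfn4 (-0.22, SE 0.17) and Parp12 (-0.21, SE 0.15) had the smallest p-values.

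After fMLP the members again read lower on knockout arrays, by far the most on knockout replicate 2. With all arrays 34 of 35 members were lower, with a median of -0.56, against 56.7% of all genes and a median of -0.05. No member passed the test: 0 of 35 were called with limma (0.00711% of all genes), and 16 had an unadjusted p below 0.05, against 8.40% of all genes. Without knockout replicate 2, 30 of 35 were lower, with a median of -0.14 (all genes 51.5% and 0.00), 0 were called, and the unadjusted p was below 0.05 for 4 (1.81% of all genes). Without knockout replicate 1, so that replicate 2 alone stands for the knockout, 33 members were called lower with a median of -1.05, as were 31.3% of all genes. On knockout replicate 2, 34 members lay more than 0.3 below each of the other 3 fMLP arrays, as did 31.9% of all genes. Bst2 was the exception, at 9.75 against 9.49 to 9.59.

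On knockout replicate 1 the neuron markers summed to 11.5, against 11.5 and 11.4 on the fMLP wild type arrays. On this knockout array 23 of 35 members lay below both fMLP wild type arrays, against 36.1% of all genes. Knockout replicate 2 read below the other 3 fMLP arrays for 34 of 35 members, so nearly all of the 23 had to stay when it was counted. The 22 members with both knockout arrays below both wild type arrays (26.0% of all genes) therefore add nothing to the 23. The wild type arrays differed by -0.12 to 0.75 over the members (replicate 2 minus 1, median 0.08). The gap to the knockout array exceeded that between the wild type arrays for 13 of all 35 members (37.1%, against 18.5% of all genes). Among those already below both wild type arrays this was 13 of 23 members and 2605 of 5077 genes, which are similar shares. In pair 3 of the unstimulated arrays 34 of 35 members were lower in the knockout, so nearly all of the 23 had to be lower there too. The 22 members lower in both (18.9% of all genes) therefore add nothing to the separate counts. The monocyte markers differed here from pair 3, as 3 of 9 were lower on knockout replicate 1, with a median of 0.04. The B cell markers were again higher, 0 of 7 being lower, with a median of 0.25. Of 14 neutrophil markers 13 were lower, with a median of -0.09. The part of any of these markers in the members' difference was not tested.

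Ifit3 had the smallest p of all members. It read 9.79 and 10.54 in wild type cells after fMLP and 9.30 and 8.35 in knockout cells, so both knockout arrays were below both wild type arrays, which themselves differed by 0.75. The log2 difference was -1.34 (SE 0.34, limma adjusted p = 0.416) and, without replicate 2, -0.87 (SE 0.27, limma adjusted p = 1.0). Ifit1 read 9.24 and 9.91 in wild type and 9.07 and 7.81 in knockout cells, after 8.05, 8.16 and 9.17 in unstimulated wild type and 8.15, 7.96 and 8.74 in unstimulated knockout cells. Its difference after fMLP was -1.14 (SE 0.38, limma adjusted p = 0.416), and -0.51 (SE 0.24, limma adjusted p = 1.0) without replicate 2.

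The wild type arrays of Ifih1, Herc6 and Eif2ak2 were closer together. Ifih1 read 9.31 and 9.34 in wild type and 8.96 and 8.11 in knockout cells after fMLP. In unstimulated cells it had read 8.03, 8.04 and 9.61 in wild type and 8.11, 7.88 and 9.15 in knockout cells. Knockout replicate 1 was thus 0.36 below the wild type mean, where the wild type arrays lay 0.03 apart. Herc6 read 8.95 and 8.94 in wild type and 8.60 and 7.89 in knockout cells after fMLP. Its unstimulated values were 7.89, 7.83 and 8.72 in wild type and 7.89, 8.01 and 8.39 in knockout cells, and replicate 1 was 0.34 below the wild type mean after fMLP. Eif2ak2 read 8.81 and 8.83 in wild type and 8.52 and 7.64 in knockout cells after fMLP, a replicate 1 difference of -0.30. The limma differences without replicate 2 were -0.36 (SE 0.16) for Ifih1, -0.34 (SE 0.15) for Herc6 and -0.30 (SE 0.13) for Eif2ak2, each at an adjusted p of 1.0.

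The remaining members on knockout replicate 1 ranged from -0.47 to 0.12 against the wild type mean. Rsad2 (-0.47), Usp18 (-0.45), Oas1a (-0.37), Rtp4 (-0.36), Oasl2 (-0.29), Oas2 (-0.29) and Oas3 (-0.25) were the lowest of them. Irf1, Gbp3, Psmb8, Psmb9 and Ifi35 were higher, by 0.02 to 0.12. Rtp4 and Oasl2 had differed most in unstimulated pair 3, at -1.08 and -0.87. Of the signalling genes 0 of 37 were called after fMLP (0.00711% of all genes), and the smallest p-values were those of the lambda interferon receptor Ifnlr1 (-0.72, SE 0.26), the kinase Ikbke (-0.44, SE 0.17), the phosphatase Ptpn2 (-0.52, SE 0.22) and Ddx58, which encodes RIG-I (-0.58, SE 0.26). Of the further induced genes 0 of 46 were called (0.00711% of all genes), with Parp12 (-0.59, SE 0.19), Ddx60 (-0.93, SE 0.31), Slfn4 (-0.61, SE 0.21) and Oas1b (-0.63, SE 0.22) at the smallest p-values. Oas1b exceeded the 8.18 needed for testing only on the fMLP wild type arrays (8.44 on each). Its lower knockout value was therefore not independent of its selection for testing. Without knockout replicate 2, 23 of the 46 further induced genes were lower, with a median of 0.00, and 22 of the 37 signalling genes, with a median of -0.04. Over all genes 51.5% were lower, with a median of 0.00.

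**Figure D2:**
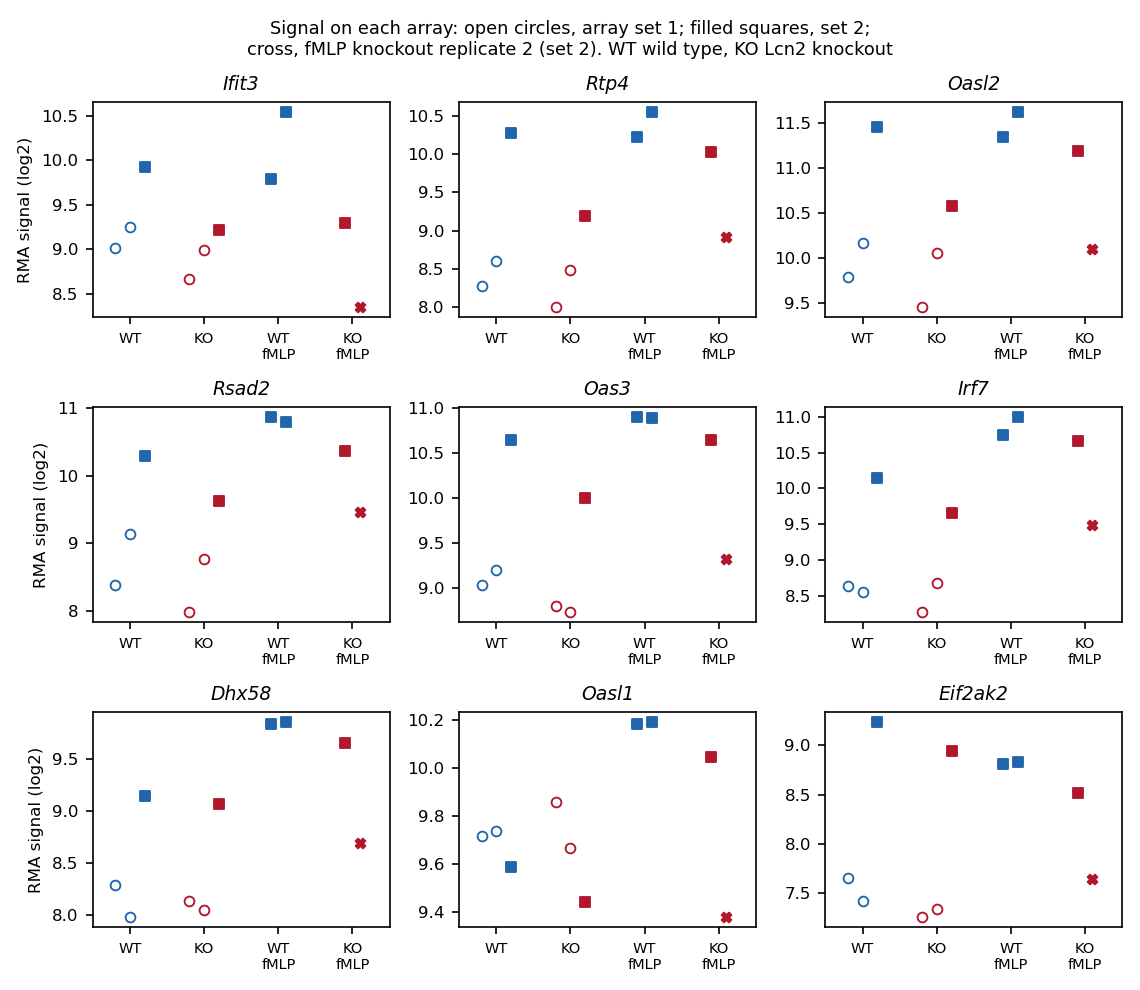
RMA signal (log2, y axis) of 9 members on each of the 10 arrays, by group (WT wild type, KO Lcn2 knockout). Open circles are array set 1, filled squares set 2, and the cross is fMLP knockout replicate 2, which carries neuron transcripts. The knockout square lies below the wild type square of the unstimulated arrays in all 9 panels, and the cross is the lowest fMLP value in each.

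The fMLP arrays of set 2 were compared with the 2 unstimulated arrays of that set, averaged over genotype. With all arrays, 0 of 35 members were called with limma (0.341% of all genes), the median was 0.04, and the unadjusted p was below 0.05 for 4 (14.6% of all genes): Oasl1 higher, and Eif2ak2, Psmb8 and Samd9l lower. Without knockout replicate 2, 7 of 35 were called, 6 higher (6.36% of all genes) and 1 lower (3.79%). The members' median was then 0.19, with 7 of 35 lower, against -0.01 and 52.7% over all genes. Without knockout replicate 1, which leaves replicate 2 for the knockout, 9 members were called lower (16.9% of all genes) and none higher. When the 9 arrays without knockout replicate 2 were quantile normalized again, 0 of 35 members were called (1.23% of all genes), with 10 reaching an unadjusted p below 0.05 and the members' median was 0.16.

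Irf7 was the member with the largest rise. It read 8.65 and 8.55 in wild type and 8.27 and 8.68 in knockout cells of set 1, 10.15 and 9.66 on the unstimulated wild type and knockout arrays of set 2, and 10.74 and 10.99 in wild type and 10.66 in knockout replicate 1 after fMLP. All 3 fMLP arrays were above both unstimulated ones, while knockout replicate 2, at 9.49, was below both. The rise without that array was 0.86 (SE 0.15, limma adjusted p = 0.00643). The difference with it was 0.56 (SE 0.29, adjusted p = 0.427), and the adjusted p after quantile normalization without it was 0.103. Dhx58 read 9.15 and 9.07 unstimulated and 9.84, 9.86 and 9.65 on the 3 fMLP arrays, with 8.69 on knockout replicate 2. Its rise without that array was 0.64 (SE 0.11, limma adjusted p = 0.00594, or 0.135 after quantile normalization), and the difference with it was 0.40 (SE 0.23, adjusted p = 0.476).

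Of the 6 members called higher, Oasl1 had the value that knockout replicate 2 moved least, though that array read below both unstimulated ones. It read 9.59 and 9.44 unstimulated in set 2, 10.18 and 10.19 in wild type and 10.05 and 9.38 in knockout cells after fMLP, after 9.72 and 9.74 in wild type and 9.86 and 9.67 in knockout cells of set 1. The rise was 0.60 (SE 0.10, limma adjusted p = 0.00524) without replicate 2. The difference with it was 0.44 (SE 0.17, adjusted p = 0.2997), and the adjusted p after quantile normalization of the 9 arrays was 0.145. Irgm1 read 9.49 and 9.15 unstimulated and 9.85, 9.98 and 9.73 on the 3 fMLP arrays, a rise of 0.50 (SE 0.11, limma adjusted p = 0.0184). With knockout replicate 2, which read 8.73, below both unstimulated arrays, its difference was 0.25 (SE 0.24, adjusted p = 0.676). Irf9 read 10.35 and 10.15 unstimulated and 10.72, 10.77 and 10.74 after fMLP, a rise of 0.50 (SE 0.13, limma adjusted p = 0.0417). Its difference with knockout replicate 2, at 9.63, was 0.22 (SE 0.27, adjusted p = 0.750). Oas3 read 10.64 and 10.00 unstimulated and 10.90, 10.89 and 10.64 after fMLP, so its groups met at 10.64 (rise 0.45, SE 0.11, limma adjusted p = 0.0259). With knockout replicate 2, at 9.32, its difference was 0.12 (SE 0.30, adjusted p = 0.886).

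Eif2ak2 was the member that fell. It read 9.24 and 8.94 unstimulated in set 2, and 8.81, 8.83 and 8.52 on the 3 fMLP arrays, after 7.65, 7.42, 7.26 and 7.34 in set 1 (wild type, then knockout). The 3 fMLP arrays were below both unstimulated ones, and so was knockout replicate 2 at 7.64. It fell by 0.42 without that array (SE 0.10, limma adjusted p = 0.0262), and the difference with it was -0.64 (SE 0.21, adjusted p = 0.218). Psmb8 read 9.79 and 9.69 unstimulated in set 2, 9.35 and 9.47 in wild type and 9.44 and 8.52 in knockout cells after fMLP, and 8.40, 8.43, 8.42 and 8.34 in set 1 (wild type, then knockout). Its difference was -0.31 (SE 0.09, limma adjusted p = 0.0565) without replicate 2 and missed the threshold. Samd9l, a restriction factor of poxviruses, read 11.03 on both unstimulated arrays of set 2, 10.80 on both wild type and 10.61 and 9.60 on the knockout fMLP arrays, and 8.13, 8.31, 7.97 and 7.94 in set 1.

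Across the members, the 3 fMLP arrays without knockout replicate 2 all lay above both unstimulated arrays of set 2 for 16 of 35 (26.8% of all genes) and below for 3 (28.7%). The 16 were Dhx58, Zbp1, Irf1, Irf7, Irf9, Stat2, Oasl1, Rsad2, Cmpk2, Isg20, Irgm1, Ifitm3, Bst2, Tap1, Ifi35 and Trim30a. With knockout replicate 2 included, 1 remained above, Bst2 (11.9% of all genes), and the same 3 below (20.2%). Rsad2 read 10.87 and 10.79 in wild type and 10.36 and 9.47 in knockout cells after fMLP. Its difference without knockout replicate 2, 0.63 (SE 0.25), missed the threshold, as did that of Rtp4 at 0.47 (SE 0.22). Rtp4 read 10.22 and 10.55 in wild type and 10.03 and 8.92 in knockout cells after fMLP, and Dtx3l 10.38 and 10.49 in wild type and 10.39 and 9.29 in knockout cells.

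**Figure D3:**
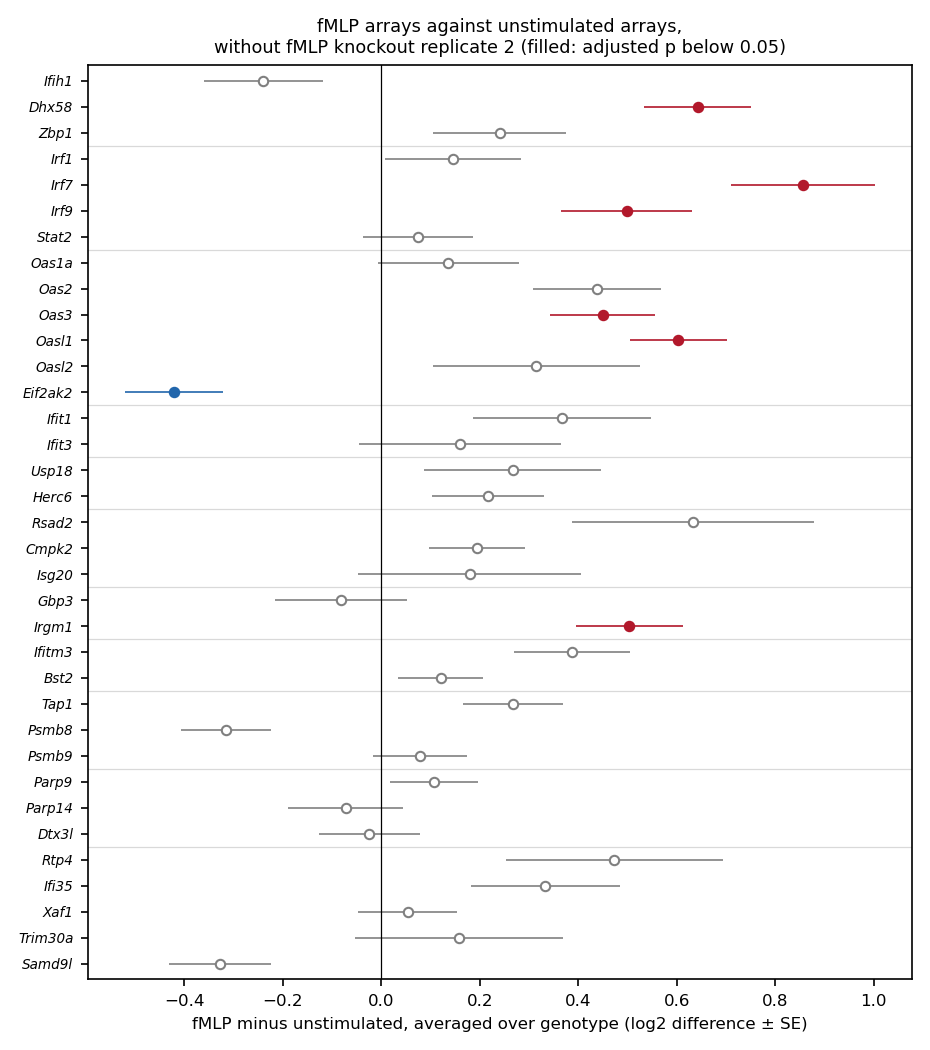
Fitted difference between fMLP and unstimulated arrays, averaged over genotype, without fMLP knockout replicate 2 (log2, x axis, bars are SE) for the 35 tested members, ordered by role with lines between roles. Filled points had an adjusted p below 0.05: 6 higher (red) and Eif2ak2 lower (blue). With all 10 arrays 0 members were called.

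Further induced genes stood beside the members. Of 46, 11 rose without knockout replicate 2 (6.36% of all genes) and 0 fell (3.79%): Cd274, the ligand PD-L1 (1.27), Lgals3bp (1.14), Ifi27l2a (0.93), Gbp4 (0.77), the class II regulator Ciita (0.70), Parp12 (0.61), Tapbp (0.55), Lgals9 (0.53), Gbp7 (0.53), Epsti1 (0.49) and Parp10 (0.38). With all arrays the 11 differences were 0.15 to 0.998 and 0 were called (0.341% of all genes), and the smallest p-values were those of Lgals3bp (0.998, SE 0.16, limma adjusted p = 0.0507), Gbp4 (0.64, SE 0.15), Cd274 (0.98, SE 0.28) and Parp12 (0.45, SE 0.16). Lgals3bp, a secreted glycoprotein, read 8.98 and 9.01 unstimulated in set 2 and 10.28, 10.06, 10.10 and 9.53 after fMLP. Gbp4 read 7.42 to 7.58 on the unstimulated arrays. It exceeded the 8.18 needed for testing only on fMLP wild type replicate 2 (8.31) and fMLP knockout replicate 1 (8.22). Its place among the 11 was therefore not independent of its being high after fMLP. Of the 37 signalling genes 0 were called with all arrays (0.341% of all genes), with the phosphatase Ptpn11 (-0.33, SE 0.11), the kinase Tbk1 (-0.51, SE 0.20), Ifna9 (0.31, SE 0.13) and the RNA sensor Tlr7 (-0.59, SE 0.25) at the smallest p-values. Ifna9 read 7.74 to 8.13 on the arrays of set 2, below the 8.18 needed for testing, and passed only through set 1.

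Much else differed between these same arrays. The 9 monocyte markers were all lower on the 3 fMLP arrays than on the unstimulated arrays of set 2, with a median of -0.79, and the 8 eosinophil, basophil and mast cell markers were all lower, with a median of -1.42. Of 7 B cell markers 1 was lower, Jchain at -2.13, and the median was 0.57. Of 7 T and NK cell markers 1 was lower, Nkg7 at -0.22, and the median was 0.68. The sex-linked genes split the same arrays, as given above. Stimulation and these differences between the arrays cannot be told apart, and their part in the members' rise was not tested.

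The last comparison asked how far the response to fMLP differed between genotypes. With all arrays, 34 of 35 members had a lower response in the knockout, with a median of -0.43, against 60.9% of all genes and a median of -0.07. None was called with limma (0.0% of all genes), and 1 had an unadjusted p below 0.05 (1.83% of all genes), Oas1a. Without knockout replicate 2 the median was -0.01, with 18 of 35 lower, 0 called and 1 at an unadjusted p below 0.05 (0.888% of all genes), Dtx3l at 0.39 (SE 0.16). Without knockout replicate 1, 31 members were called lower (24.0% of all genes), on knockout replicate 2 alone.

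Oas1a read 9.10, 9.35 and 9.20 in unstimulated wild type cells and 9.65, 9.38 and 8.97 in knockout cells. After fMLP it read 9.42 and 9.39 in wild type and 9.03 and 8.69 in knockout cells, with both knockout arrays below the wild type ones. The difference of responses was -0.66 (SE 0.24, limma adjusted p = 0.776), and -0.49 (SE 0.23, adjusted p = 1.0) without replicate 2. Those of Herc6 (-0.64, SE 0.28), Ifit3 (-0.91, SE 0.44) and Ifit1 (-0.96, SE 0.49) followed. Stat2 came next, at -0.51 (SE 0.26). It read 8.84, 8.75 and 9.67 in unstimulated wild type, 9.08, 8.80 and 9.65 in unstimulated knockout, 9.73 and 9.84 in fMLP wild type and 9.69 and 9.06 in fMLP knockout cells. Of the signalling genes Ikbke, Ifnlr1, Ptpn2 and Ptpn6 had the smallest p-values (-0.64 to -0.54), and of the further induced genes Oas1b, Ddx60, Psme2 and Ifi27 (-0.77 to -0.52), with 0 called in either list. Oas1b entered the test only through the fMLP wild type arrays, as given above.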

How the data were processed

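RNA of enriched bone marrow neutrophils was hybridised to 10 Affymetrix arrays. The authors deposited RMA signals from Affymetrix Expression Console, per the submitters' processing notes, and these were read as log2 values by their range, because no base is stated. RMA makes the value distributions of arrays run together alike, and whether all arrays were run together is not stated. Of 35556 probe sets, 21789 name 1 gene, 1621 several and 12146 none. Precision is limited by the number of arrays, which have no read depth.

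All 10 arrays were fitted with limma 3.58.1 (R 4.3.3) with a coefficient per group and the array set (interquartile range below or above 2) as a term, with 5 residual degrees of freedom. Tests were two-sided, p-values were adjusted by Benjamini-Hochberg over 14070 genes, and calls were made below 0.05. Differences between single arrays have no test. The procedure was tested on simulated data. The members, lists and tests were chosen with earlier results of these data known. All 43 members are named, with values on every array for the 5 with the smallest p in each comparison. Of the signalling and further induced genes, those called or the 4 with the smallest p in each comparison are named. Members called without fMLP knockout replicate 2 were added after their values were seen.

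Replicate numbers pair the unstimulated arrays (correlations of same-numbered deviations 0.949, 0.929 and 0.988), largely through the array set, and within set 1 the correlation was 0.464. For the fMLP arrays it was 0.0598. Deviations of the knockout arrays there carry the neuron transcripts of replicate 2, so this value cannot decide whether the fMLP arrays were paired. Each fMLP knockout array was set against the mean of the wild type arrays.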

Additional observations from a re-analysis of the deposited data

How the results depend on the processing

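In unstimulated cells 0 members were called under every alternative that was run, and the members' median was -0.26 with only array set 2, and -0.16 to -0.04 when each array was left out. After fMLP the knockout calls ran from 0 to 33 and the median from -1.05 to -0.14 when each array was left out, the extremes being without knockout replicate 1 or 2. For the difference of the responses the same ranges were 0 to 31 and -0.90 to -0.01. For fMLP against unstimulated arrays they were 0 to 9 and -0.21 to 0.19.

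That comparison depended most on the array set. Without the set term its median was 0.61, or 0.83 also without fMLP knockout replicate 2, an alternative added after the data had been seen, as was the repeated quantile normalization. With the replicate number as a block in place of the set, 28 members were called (83.6% of all genes), with a median of 0.92, because this replicate block sets the fMLP arrays against unstimulated arrays of set 1. Signs were then turned without the set term, without both, and with the block for Eif2ak2 (0.47, 0.69 and 1.03), Psmb8 (0.35, 0.58 and 0.80), Samd9l (1.38, 1.64 and 2.36) and Ifih1 (0.46, 0.67 and 0.92). Leaving out each array, the values of Oas3 ran from -0.21 (without fMLP knockout replicate 1) to 0.45 (without replicate 2), with -0.03 without unstimulated knockout replicate 3. Those of Irf9 ran from -0.056 to 0.50, without the same 2 arrays. With array weights 3 members were called, Eif2ak2, Psmb8 and Samd9l, all lower (3.33% of all genes). The replicate block changed no other call. A fit with a fixed block and the array set together is the same as the fixed block alone, since the set follows from number and group. A random block with the array set called 0 members in all 4 comparisons. The precision is limited by 2 or 3 arrays a group.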
